A study of Mus musculus with 16 samples.

Results

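The genes described here encode the protein subunits and named assembly factors of the mitochondrial respiratory chain that are carried on nuclear chromosomes. They were chosen by symbol: all protein-coding genes starting with Nduf (complex I), Sdha to Sdhd and Sdhaf (complex II), Uqcr and Cyc1 (complex III), Cox4 to Cox8 (complex IV) and Atp5 (complex V, ATP synthase). Such symbols were carried by 112 genes of the count table, and 13 of these were not protein-coding, nearly all of them processed pseudogenes. That left 99 members of 55536 genes in all, with 46 in complex I, 8 in complex II, 9 in complex III, 18 in complex IV and 18 in complex V. A filter on low counts kept 15316 genes for testing, among them 92 members (45, 8, 9, 13 and 17 by complex). The 7 that did not pass were Ndufa4l2, Cox4i2, Cox6a2, Cox7b2, Cox8b, Cox8c and a second gene named Atp5o.

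Poly(A) RNA was sequenced from a mouse inner medullary collecting duct cell line, an epithelial line from the final segment of the kidney tubule, grown on permeable filters for 10 days. All titles call the cells Pkd2KO. Pkd2 encodes polycystin-2, a cation channel mutated in polycystic kidney disease. There were 4 groups of 4 libraries: passage 4 without DOX and passage 7 without DOX, whose genotype label is wild type, and passage 4 with DOX and passage 7 with DOX, labelled as a knockout induced by DOX. DOX is doxycycline, given at 2 ug/mL for 6 days. Nothing in the labels gives the promoter or enzyme that carries out the deletion, how many clones the line holds or whether replicates were separate cultures, so p-values measure the spread between these libraries, which may be technical. No cells without the inducible deletion were given DOX in these groups, so an effect of DOX itself and of losing Pkd2 cannot be told apart.

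The respiratory chain passes electrons from NADH at complex I and from succinate at complex II through coenzyme Q to complex III, then by cytochrome c to complex IV, which reduces oxygen. Complexes I, III and IV pump protons out of the mitochondrial matrix, and complex V lets them flow back to make ATP. Doxycycline belongs to the tetracyclines, which bind bacterial ribosomes and are known to slow translation on mitochondrial ribosomes, where the chain subunits encoded by mitochondrial DNA are made. The nuclear genes described here are translated in the cytosol and their products imported.

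Pkd2 was lower in every library with DOX, at 47.6 to 65.9 CPM (counts scaled to the library's total) against 135 to 187 without, a log2 fold change of -1.56 (SE 0.06, edgeR adjusted p = 4.4e-13). All 8 general collecting duct epithelium markers, such as Krt8 and Cdh1, passed the filter on low counts, and their CPM sums moved with DOX and passage. They were 5605 to 5794 without and 4500 to 4612 with DOX at passage 4, and 6357 to 6830 and 5445 to 6069 at passage 7. Of 10 principal cell markers 6 passed the filter, with Scnn1a highest at 88.0 to 226 CPM and Hsd11b2 next at 5.55 to 17.5. Gata3 had a median of 6.75 CPM, and Avpr2, Scnn1b and Scnn1g had medians of 0.918, 1.21 and 0.915. The water channel Aqp2 was at 0 in all 16 libraries, and Aqp3, Aqp4 and Elf5 reached at most 0.381, 0.133 and 0.0781 CPM. Sums of the principal cell markers came mostly from Scnn1a, so their shifts mainly reflect that gene. At passage 4 these sums were 108 to 148 without and 142 to 177 with DOX. At passage 7 they were 172 to 195 without and 198 to 240.0 with DOX. Leukocyte marker CPM, mostly from Csf1r and Cd68, summed to 39.0 to 46.9 at passage 4 and 67.1 to 75.2 at passage 7 without DOX, and to 20.1 to 35.5 and 36.1 to 43.7 with DOX, while Adgre1 was at 0. The part of these marker shifts in the results was not tested. Total counts were 9937504 to 17188295 per library. The deposited TPM columns matched the count columns by position in 16 of 16 and by header in 4 of 16, and under the count headers Pkd2 fell with DOX, so all results rest on the counts. Libraries of the same replicate number deviated together (correlations of 0.21 to 0.419), as did replicates 1 and 2 and replicates 3 and 4 (0.208 to 0.449), against -0.392 to -0.2 across these pairs.

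The respiratory chain genes were expressed well above the typical gene. Their median level per length, as the mean CPM of the 16 libraries per kilobase of exon, was 64.8 for complex III, 60.3 for complex IV, 39.4 for complex V, 26.02 for complex I and 23.01 for complex II, over tested members. The median of all 15316 tested genes was 6.39, and 80 of the 92 members were above it. Highest per length were Cox6a1 (248), Cox8a (239) and Cox6b1 (213) of cytochrome c oxidase, with Atp5b (238) and Atp5a1 (197), the catalytic beta and the alpha subunit of ATP synthase. Within complex I, Ndufa2, an accessory subunit of the NADH-oxidising arm, was highest at 110.2. In complex II the membrane anchor Sdhd led at 75.6, and in complex III the small subunit Uqcr10 at 101. By the mean deposited TPM the order differed: Atp5b (1375) and Cox4i1 (909) were above Cox6a1 (736), Ndufa7 (363) led complex I and Sdha (210.3) complex II. The 12 assembly factors, which help to build the complexes but are not kept in them, had a median of 5.92 against 45.6 for the other 80 tested members. Lowest per length were Ndufb2 (0.946), Sdhaf3 (1.40), Cox7a1 (1.41) and Atp5l (2.87). Annotated exons of Ndufb2 overlap Braf, and 84.8% of the 50-base stretches of Atp5l occur in other genes, so these levels are uncertain. Summed over the members, 0.694% to 0.852% of the counts in a library came from these genes.

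**Figure D1:**
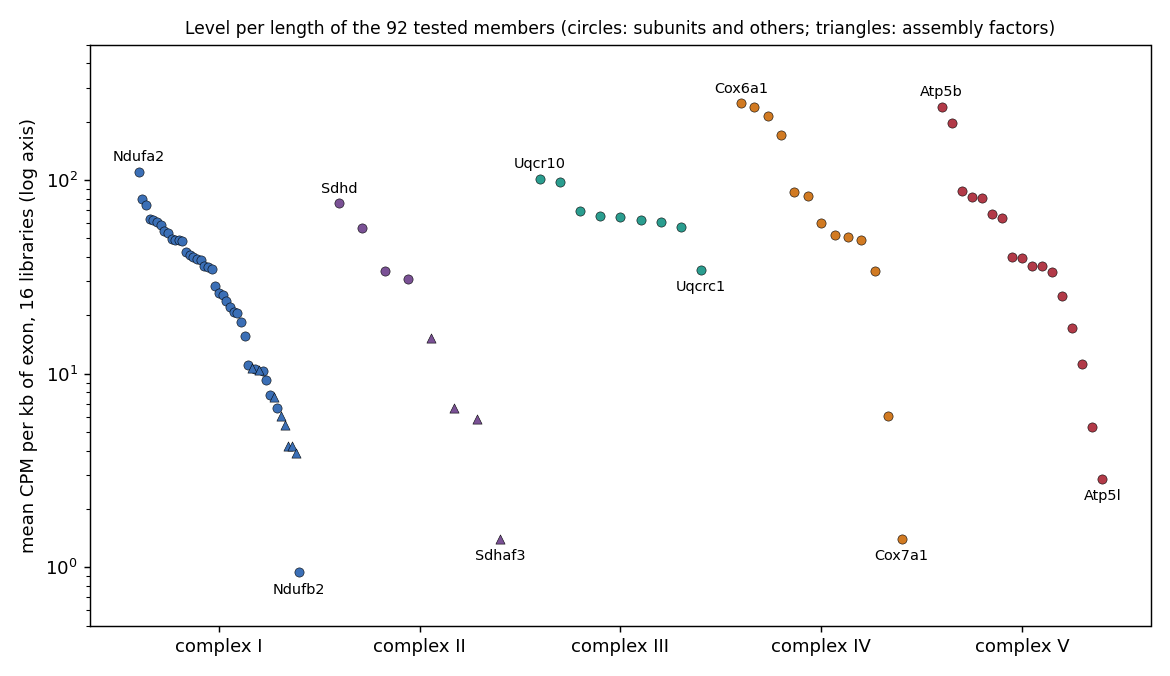
Mean CPM per kilobase of exon over the 16 libraries (log axis) for the 92 tested members, sorted within each complex. Circles are subunits and other genes, triangles are assembly factors, which lie at the lower end of complexes I and II, and the highest and lowest member of each complex are named.

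Complex IV carries several subunits in tissue-specific copies, and in this line the general copies dominated. Cox4i1 stood at 252 to 274 CPM at passage 4 without DOX, while Cox4i2, a copy known from lung and induced by low oxygen, had 21 counts in all 16 libraries together. Cox6b1 stood at 159 to 171 CPM in the same group, and its testis counterpart Cox6b2 at 5.54 to 8.21. Cox7a2 stood at 69.2 to 88.7 CPM and its heart and muscle counterpart Cox7a1 at 0.746 to 1.11. Cox8b had 1 count in all, and Cox8c and Cox7b2 had none. Ndufa4l2, the low-oxygen counterpart of Ndufa4, had 19 counts. Ndufa4 itself is named as a complex I gene and grouped so here, although its product is known to sit in complex IV.

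Promoter windows of 300 bases, from 250 before to 50 after the RefSeq start, were at hand for 79 of the 99 members (83 windows, GRCm38.p6). NRF1 and the ETS factor GABP are known regulators of respiratory chain genes, and YY1 binds many promoters of this group. Each motif was searched on both strands, and no motif contains another. The NRF1 letters GCGCATGCG were in 12.05% of member windows against 1.75% of all 32851 windows, and the ETS letters CCGGAAG in 25.3% against 8.86%. The YY1 letters AAGATGGCG were in 9.64% against 1.40%, and the letters TCAAGGTCA of estrogen-related receptors in 2.41% against 0.423%. TGATGNAA, read by the stress factor ATF4, was in 0 of the 83 windows and in 3.97% of all. Member windows were also richer in G and C (median 58.3% against 52.7%), which raises the chance of the GC-rich motifs. These are matches of letters, not binding sites. Windows of 4 members whose RNA is described under DOX are shown because they span the range found, from both NRF1 and ETS letters to none, with matches on either strand in capitals.
Uqcr11 (chr10:80406772-80407071, minus strand, ETS and NRF1 letters): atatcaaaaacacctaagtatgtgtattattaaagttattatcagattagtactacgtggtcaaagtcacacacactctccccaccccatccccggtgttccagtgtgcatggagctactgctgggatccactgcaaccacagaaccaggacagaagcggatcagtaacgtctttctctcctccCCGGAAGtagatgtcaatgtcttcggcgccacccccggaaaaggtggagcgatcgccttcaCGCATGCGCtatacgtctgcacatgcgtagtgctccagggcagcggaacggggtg
Uqcrc1 (chr9:108936398-108936697, plus strand, NRF1 letters): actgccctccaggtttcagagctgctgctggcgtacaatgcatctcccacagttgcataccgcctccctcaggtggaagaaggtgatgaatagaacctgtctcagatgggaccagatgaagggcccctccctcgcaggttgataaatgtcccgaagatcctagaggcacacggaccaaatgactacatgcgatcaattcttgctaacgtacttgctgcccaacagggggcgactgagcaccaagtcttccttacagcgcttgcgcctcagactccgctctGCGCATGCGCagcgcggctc
Ndufs8 (chr19:3912725-3913024, minus strand, ETS letters): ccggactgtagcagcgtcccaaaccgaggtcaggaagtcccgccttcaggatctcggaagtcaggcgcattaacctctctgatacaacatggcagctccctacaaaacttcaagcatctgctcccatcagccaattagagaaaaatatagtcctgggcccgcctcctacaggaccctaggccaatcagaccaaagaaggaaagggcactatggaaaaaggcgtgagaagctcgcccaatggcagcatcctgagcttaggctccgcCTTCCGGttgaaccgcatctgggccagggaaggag
Sdhaf4 (chr1:24005591-24005890, minus strand, no match): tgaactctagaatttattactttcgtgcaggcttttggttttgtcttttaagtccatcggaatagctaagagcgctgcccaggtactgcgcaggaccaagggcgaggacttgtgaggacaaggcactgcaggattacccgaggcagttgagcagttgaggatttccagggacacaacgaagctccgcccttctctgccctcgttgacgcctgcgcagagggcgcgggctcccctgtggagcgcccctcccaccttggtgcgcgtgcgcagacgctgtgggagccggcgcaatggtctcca

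With DOX, averaged over both passages, more of the respiratory chain genes rose than fell, and by small amounts. Of 92 tested members 22 were higher (23.9%) and 7 lower (7.61%) by edgeR's quasi-likelihood test, with an adjusted p under 0.05 counted as called. Of all 15316 genes 15.7% were called higher and 16.6% lower, so the share of members called higher was above the background and the share called lower below it. The median log2 fold change was 0.06 for the members and -0.0031 for all genes. A change of at least 1.5-fold was fitted for 1 member (1.09%) against 8.36% of all genes, and the median size of change was 0.10 against 0.14 (0.10 of 90 members against 0.12 of 11694 genes at 5 CPM or more). By complex, the higher and lower calls were 6 and 2 of 45 in complex I, 2 and 2 of 8 in complex II, 5 and 0 of 9 in complex III, 2 and 2 of 13 in complex IV and 7 and 1 of 17 in complex V. With the replicate number as a block 30 members were higher (32.6%) and 9 lower (9.78%), against 20.2% and 21.7% of all genes in the same fit. In that fit the higher calls by complex I to V were 10 of 45, 2 of 8, 7 of 9, 3 of 13 and 8 of 17. No call was lost. In replicates 1 and 2 alone 15 of 92 members were higher and 4 lower (16.3% and 4.35%), against 14.5% and 15.2% of all genes. In replicates 3 and 4 alone 36 of 93 were higher and 7 lower (38.7% and 7.53%), against 19% and 20%. So the share called higher was near the background in replicates 1 and 2 and above it in replicates 3 and 4. RNA was taken from bulk cultures, so more RNA per cell and more cells of a given state cannot be told apart.

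All 8 libraries with DOX lay above all 8 without for 5 members, Ndufs8, Ndufb10, Sdhaf1, Uqcrq and Atp5b, where 2.57% of all genes did so. No member had all 8 libraries with DOX below those without, against 2.66% of all genes. Summed over its genes, complex III went from 862 ± 8.50 to 949 ± 44.7 CPM at passage 4 and from 813 ± 37.9 to 941 ± 69.2 at passage 7 (SD, n = 4), with no overlap of libraries at either passage. Uqcrq alone gave a large part of this, with means going from 106 to 132 CPM at passage 4 and from 103 to 166 at passage 7. Complex V went from 2830 ± 40.9 to 3048 ± 70.3 and from 2729 ± 150.1 to 3012 ± 133, with no overlap at passage 4. Complex I went from 2153 ± 36.7 to 2179 ± 84.0 and from 2041 ± 142 to 2137 ± 144, and complex II from 618 ± 7.61 to 614 ± 18.8 and from 560 ± 17.5 to 561 ± 20.1. Complex IV went from 1387 ± 44.6 to 1425 ± 57.5 and from 1345 ± 91.6 to 1402 ± 101. These sums were not tested. Among tested members with a promoter window, NRF1, ETS or YY1 letters were in 7 of 16 called higher, 0 of 5 called lower and 26 of 55 not called.

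**Figure D2:**
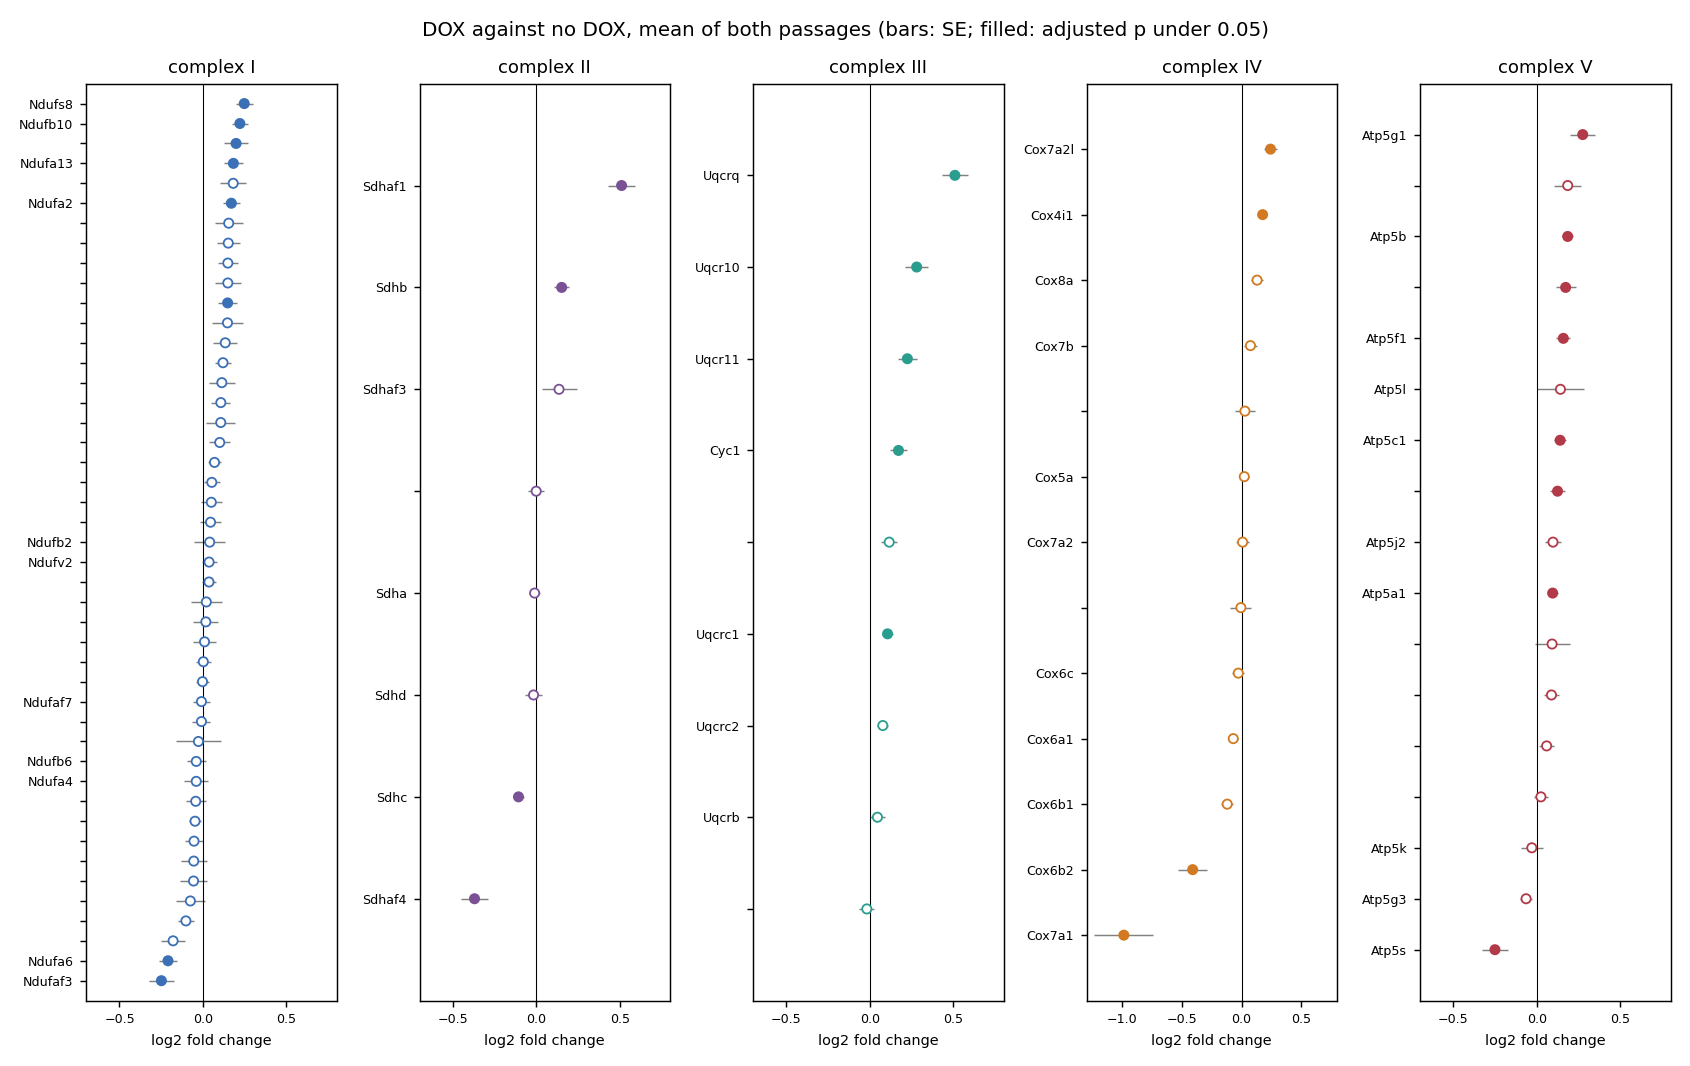
Log2 fold change with DOX, averaged over passages, for the 92 tested members in 1 panel per complex, with SE as bars and filled points for adjusted p under 0.05 (the complex IV axis is wider, and a selection of members is labelled). Complexes III and V have 5 and 7 filled points to the right of 0, and the filled points left of 0 include Cox7a1, Cox6b2 and Sdhaf4.

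In complex I the iron-sulfur subunit Ndufs8, which holds part of the electron wire to coenzyme Q, rose 1.19-fold (log2 fold change 0.25, SE 0.05, adjusted p = 0.00078). Its CPM without DOX was 44.0, 47.6, 49.9 and 48.4 at passage 4 and 44.6, 51.6, 53.7 and 47.6 at passage 7. With DOX it was 54.2, 55.7, 61.6 and 55.7 at passage 4 and 63.2, 55.1, 60.0 and 54.8 at passage 7. The lowest library with DOX was above the highest without, by a narrow margin. Ndufs8 was called at each passage (passage 4 0.26, adjusted p = 0.015, and passage 7 0.24, adjusted p = 0.02). Its ETS letters are those in capitals in the window shown above.

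The membrane-arm subunit Ndufb10 rose 1.17-fold (log2 fold change 0.22, SE 0.05, adjusted p = 0.001). Its CPM at passage 4 was 39.9, 36.4, 37.2 and 41.5 without DOX and 45.7, 49.3, 47.8 and 42.8 with DOX, and at passage 7 40.8, 41.4, 38.6 and 36.5 without and 46.1, 43.9, 45.8 and 42.9 with DOX. The groups did not overlap at either passage, and by test Ndufb10 was called at passage 4 (0.26, adjusted p = 0.0081), with 0.18, adjusted p = 0.054 at passage 7. The accessory subunits Ndufa13 (0.18) and Ndufa2 (0.17) also rose on the log2 scale, and the groups of Ndufa13 overlapped at both passages. In Ndufa13, 28.5% of the 50-base stretches are shared with other genes, mainly Tssk6 on the opposite strand. The other 2 called higher, named after their values were seen, were Ndufs7, a second iron-sulfur subunit (log2 fold change 0.15, SE 0.06, adjusted p = 0.049), and Ndufaf2, a late assembly factor (log2 fold change 0.20, SE 0.07, adjusted p = 0.039).

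Members of complex I that fell were Ndufa6, an accessory subunit that binds the mitochondrial acyl carrier protein, and Ndufaf3, which helps to build the arm that reduces coenzyme Q. Ndufa6 fell to 0.865 of its level (log2 fold change -0.21, SE 0.05, adjusted p = 0.0058). It went from 81.0 ± 5.50 to 68.7 ± 5.66 CPM at passage 4 and from 83.1 ± 8.52 to 73.0 ± 3.74 at passage 7 (SD, n = 4), with overlapping libraries at both. Ndufaf3 fell to 0.841 of its level (log2 fold change -0.25, SE 0.07, adjusted p = 0.016). Its CPM without DOX was 14.8, 15.7, 15.8 and 15.6 at passage 4 and 11.3, 15.1, 15.3 and 15.2 at passage 7, and with DOX 14.6, 14.6, 11.7 and 13.4 and 12.2, 11.98, 11.5 and 10.3. One library at passage 7 without DOX lay within the range of the libraries with DOX, and the groups at passage 4 did not overlap. In replicates 1 and 2 alone the log2 fold change of Ndufaf3 was -0.10 (adjusted p = 0.51), and in replicates 3 and 4 alone -0.41 (adjusted p = 0.00045). The core subunits Ndufv1, Ndufs1 and Ndufs3 had log2 fold changes of -0.0027, 0.07 and 0.0020 and were not called.

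Complex II was split between its parts. The catalytic flavoprotein Sdha and the anchor Sdhd were not called with DOX (log2 fold changes of -0.01 and -0.02). The iron-sulfur subunit Sdhb rose (log2 fold change 0.15, SE 0.05, adjusted p = 0.016) and the anchor Sdhc fell (log2 fold change -0.11, SE 0.03, adjusted p = 0.021). At passage 4 Sdhb was at 66.8 to 70.0 CPM without and 68.1 to 76.7 with DOX, and at passage 7 at 59.3 to 65.9 without and 65.4 to 81.4 with DOX. The ranges of Sdhb overlapped at both passages. Sdhc was 113 to 121 CPM without DOX and 103 to 110.5 with DOX at passage 4, and 103 to 114 and 102 to 109.6 at passage 7. Its groups were apart at passage 4 and overlapped at passage 7.

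The larger changes of complex II were in its assembly factors. Sdhaf1, which helps to insert the iron-sulfur clusters of Sdhb, rose 1.42-fold (log2 fold change 0.51, SE 0.08, adjusted p = 6.3e-05). Without DOX Sdhaf1 was at 13.1, 13.5, 10.1 and 11.6 CPM at passage 4 and 10.9, 12.9, 10.8 and 12.8 at passage 7. Its level with DOX was 17.4, 16.6, 15.7 and 14.6 at passage 4 and 17.4, 15.4, 18.4 and 20.5 at passage 7. All libraries with DOX were above all without, at both passages. However, 69.0% of the 50-base stretches of Sdhaf1 are shared with E130208F15Rik, a gene on the opposite strand. E130208F15Rik rose alike (log2 fold change 0.54, SE 0.08, adjusted p = 6.7e-05), and with the strand setting of the counting not given in the sources used here, reads of the pair cannot be told apart.

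Sdhaf4, a factor known to bind the flavin-bearing Sdha before it joins Sdhb, fell to 0.773 of its level (log2 fold change -0.37, SE 0.08, adjusted p = 0.0012). Its CPM without DOX was 17.25, 16.5, 14.5 and 12.3 at passage 4 and 14.1, 14.7, 16.1 and 14.5 at passage 7. With DOX it was 10.6, 13.6, 11.3 and 10.9 at passage 4 and 10.8, 12.1, 10.9 and 12.2 at passage 7. The groups overlapped at passage 4 through 1 low library without DOX and 1 high one with DOX, and were apart at passage 7. Sdhaf4 was the only member called lower at both passages (passage 4 -0.38, adjusted p = 0.023, and passage 7 -0.37, adjusted p = 0.023). The other complex II factors, Sdhaf2 and Sdhaf3, had log2 fold changes of -0.0016 and 0.14 and were not called.

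Complex III was the complex in which 5 of 9 genes rose and none fell. Uqcrq, a small subunit beside the coenzyme Q site, rose 1.42-fold (log2 fold change 0.51, SE 0.08, adjusted p = 5e-05). Libraries without DOX had Uqcrq at 104, 108, 107 and 104 CPM at passage 4 and 92.03, 98.8, 108 and 112 at passage 7. Those with DOX had it at 116, 119, 158 and 134 at passage 4 and 147, 140.1, 198 and 180.0 at passage 7. All 8 libraries with DOX were above all 8 without, and in both DOX groups replicates 3 and 4 were higher than replicates 1 and 2. The log2 fold change of Uqcrq was 0.37 in replicates 1 and 2 alone (adjusted p = 1.3e-06) and 0.63 in replicates 3 and 4 alone (adjusted p = 4e-13). None of its 50-base stretches is shared with another gene.

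Uqcr10 and Uqcr11, other small subunits, rose 1.21-fold (log2 fold change 0.28, SE 0.07, adjusted p = 0.0036) and 1.17-fold (log2 fold change 0.22, SE 0.06, adjusted p = 0.0058). Uqcr10 CPM at passage 4 was 50.8, 53.2, 56.3 and 50.9 without DOX and 56.5, 60.6, 74.0 and 60.8 with DOX, and at passage 7 46.1, 55.3, 56.9 and 58.0 without and 64.5, 57.1, 77.4 and 68.2 with DOX. Its groups were just apart at passage 4 and overlapped at passage 7. Cyc1, the heme-bearing cytochrome c1, rose (log2 fold change 0.17, SE 0.05, adjusted p = 0.019) with overlapping libraries, and so did the core protein Uqcrc1 (log2 fold change 0.11, SE 0.04, adjusted p = 0.028). Uqcrc1 missed the threshold when any of 5 libraries was left out (replicate 2 without and 3 with DOX at passage 4, replicates 1 and 4 without and 3 with DOX at passage 7; adjusted p 0.052 to 0.062). Uqcrc2, Uqcrh, Uqcrb and the Rieske iron-sulfur protein Uqcrfs1 were not called, at 0.08, 0.12, 0.05 and -0.02 on the log2 scale. With the replicate number as a block Uqcrc2 (adjusted p = 0.047) and Uqcrh (adjusted p = 0.02) were called higher.

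**Figure D3:**
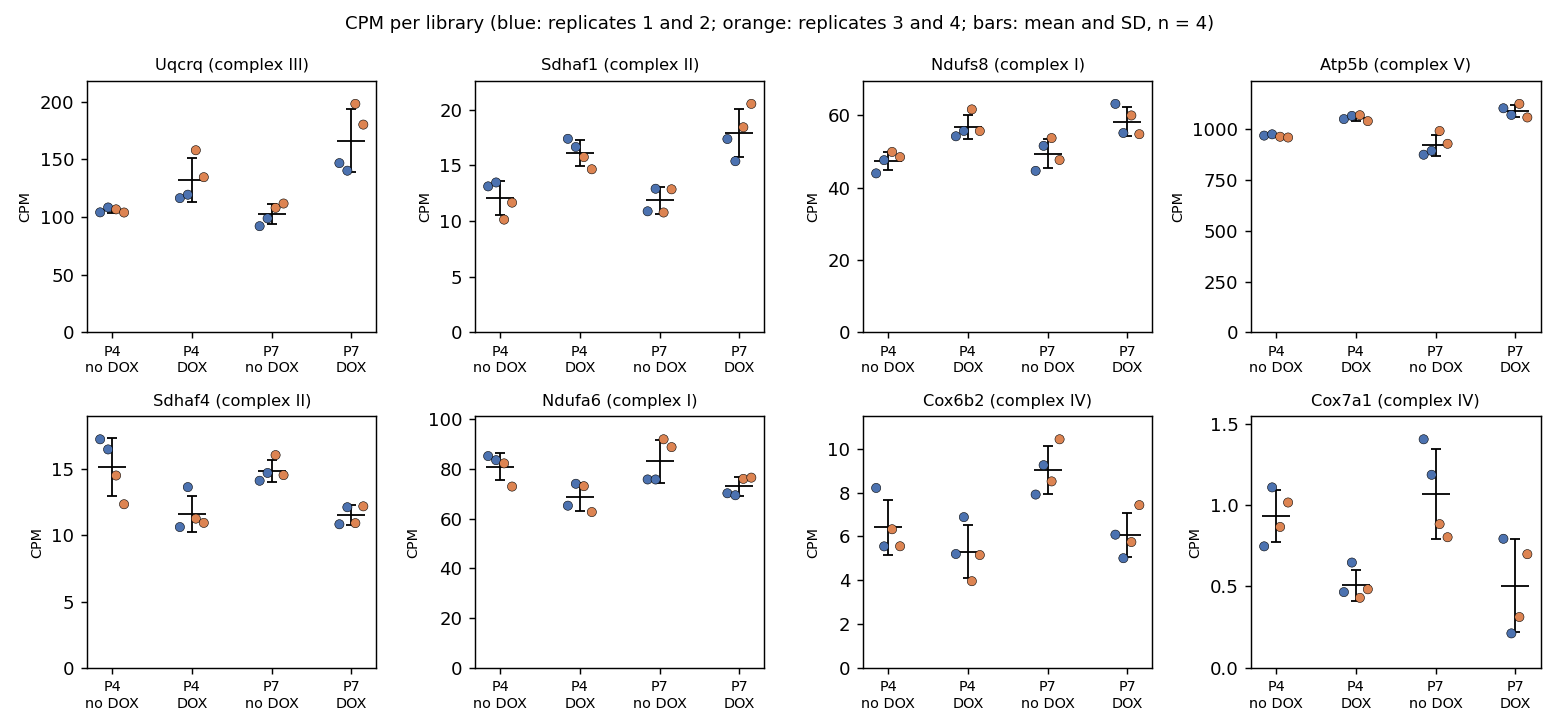
CPM in each of the 16 libraries for 8 members, with blue points for replicates 1 and 2, orange for replicates 3 and 4, and bars for the mean and SD of each group (n = 4). Uqcrq, Sdhaf1, Ndufs8 and Atp5b are higher in all libraries with DOX, while Ndufa6, Cox6b2 and Sdhaf4 show lower means with overlap in at least 1 passage, and Cox7a1 lies near 1 CPM.

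In complex IV the general subunit Cox4i1 and Cox7a2l, known to join complex III and complex IV into supercomplexes, rose. Cox7a2l rose 1.18-fold (log2 fold change 0.24, SE 0.05, adjusted p = 0.0012). Its CPM at passage 4 was 116, 129, 115 and 108 without DOX and 137, 141, 137 and 124 with DOX, and at passage 7 98.8, 97.8, 118 and 116 without and 127, 123, 140.1 and 133 with DOX. The groups overlapped at passage 4 by 1 library each and were apart at passage 7. Cox4i1 rose 1.13-fold (log2 fold change 0.18, SE 0.04, adjusted p = 0.0024). It was at 252 to 274 CPM without and 269 to 314 with DOX at passage 4, and at 223 to 249 without and 261 to 301 with DOX at passage 7. Its groups overlapped at passage 4 and not at passage 7. In replicates 1 and 2 alone Cox4i1 was at 0.11 on the log2 scale (adjusted p = 0.067), and in replicates 3 and 4 alone at 0.24 (adjusted p = 4.3e-06).

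The members of complex IV that fell were copies of low abundance. Cox7a1 fell to 0.504 of its level (log2 fold change -0.99, SE 0.25, adjusted p = 0.0046), the only tested member with a change of 1.5-fold or more on average. Its counts summed to 50 and 28 at passage 4 without and with DOX, and to 53 and 28 at passage 7. Cox7a1 lay near the filter on low counts and passed it mainly through libraries without DOX. Its fall is therefore not independent of that filter. In CPM it was 0.746, 1.11, 0.866 and 1.02 against 0.465, 0.647, 0.430 and 0.483 at passage 4, and 1.40, 1.19, 0.883 and 0.803 against 0.793, 0.211, 0.312 and 0.698 at passage 7. The groups were apart at passage 4 and just apart at passage 7, at levels of about 1 CPM, and by test the fall was called at passage 7 (-1.13, adjusted p = 0.025) with -0.85, adjusted p = 0.11 at passage 4. When edgeR was run without the filter the averaged fall was called (-0.98, adjusted p = 0.0088). That at passage 7 was then not called (-1.11, adjusted p = 0.061). Cox6b2 fell to 0.752 of its level (log2 fold change -0.41, SE 0.12, adjusted p = 0.014), from 6.41 ± 1.26 to 5.29 ± 1.20 CPM at passage 4 and from 9.03 ± 1.09 to 6.06 ± 1.01 at passage 7 (SD, n = 4). Its groups overlapped at passage 4 and were apart at passage 7. The abundant copies Cox7a2 and Cox6b1 had log2 fold changes of 0.0085 and -0.12 and were not called, although Cox6b1 (adjusted p = 0.013) and Cox8a (0.13, adjusted p = 0.02) were with the replicate number as a block.

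Cox6a2, the heart and muscle copy of Cox6a1, did not pass the filter on low counts but had nearly all of its 80 counts in libraries with DOX. At passage 4 it had 1 count without DOX, in 1 of 4 libraries, and 17 with DOX, in 4 of 4. At passage 7 it had 4 counts without DOX, in 2 of 4 libraries, and 58 with DOX, in 4 of 4. Its CPM with DOX was 0.155, 0.353, 0.258 and 0.483 at passage 4 and 0.617, 0.705, 1.248 and 1.33 at passage 7, above all libraries without DOX at the same passage. When edgeR was run without the filter its log2 fold change with DOX was 3.49 (SE 0.58, adjusted p = 6.3e-06), a size that rests on very few counts without DOX. Of its 50-base stretches 3.33% are shared with Itgad on the opposite strand. Cox6a1 stayed far above it at 142 to 158 CPM at passage 4 with DOX, with a log2 fold change of -0.07 that was not called.

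In complex V, the 7 of 17 genes that rose were subunits of the catalytic head, its stalks and the c ring, and 1 gene fell. Atp5b, the subunit that makes ATP, rose 1.14-fold (log2 fold change 0.18, SE 0.03, adjusted p = 0.00016). Without DOX its level was 969, 975, 963 and 959.6 CPM at passage 4 and 875, 894, 992 and 929 at passage 7. In libraries with DOX it was 1050.4, 1066, 1069.6 and 1040.3 at passage 4 and 1104, 1071, 1125 and 1058 at passage 7. All 8 libraries with DOX were above all 8 without. The gamma subunit Atp5c1 of the rotating shaft (0.14), the peripheral stalk subunit Atp5f1 (0.16) and Atp5a1 (0.09) rose on the log2 scale with overlap at passage 7 and none at passage 4. Atp5a1 missed the threshold without replicate 4 of passage 4 without DOX (adjusted p = 0.052) or replicate 1 of passage 7 without DOX (adjusted p = 0.057). In Atp5f1, 37.6% of the 50-base stretches occur in other genes.

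Of the 3 genes for the proton-carrying c ring, Atp5g1 rose (log2 fold change 0.27, SE 0.07, adjusted p = 0.0087), while Atp5g2 (0.18) and Atp5g3 (-0.06) were not called. Atp5g1 CPM at passage 4 was 51.0, 50.2, 60.1 and 54.5 without DOX and 62.0, 54.0, 64.7 and 62.3 with DOX, and at passage 7 39.3, 41.5, 49.7 and 52.2 without and 56.7, 48.1, 66.8 and 65.2 with DOX. Its groups overlapped at both passages. With the replicate number as a block Atp5g2 was called higher (0.18, adjusted p = 0.0036). The shaft subunits Atp5d (log2 fold change 0.12, SE 0.04, adjusted p = 0.042) and Atp5e (log2 fold change 0.17, SE 0.06, adjusted p = 0.034), named after their values were seen, also rose. Atp5s, a coupling factor and no constant part of the enzyme, fell (log2 fold change -0.25, SE 0.08, adjusted p = 0.018). Its libraries overlapped at passage 4 (9.22 to 11.97 CPM without and 8.85 to 11.1 with DOX) and were apart at passage 7 (11.3 to 13.9 without and 9.69 to 10.7 with DOX).

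Passage by passage, fewer members were called. At passage 4, 5 were higher and 3 lower (8.45% and 9.1% of all genes), and at passage 7, 12 were higher and 4 lower (11.1% and 11.6% of all genes). At passage 4 the members' share of 5.43% higher was below the background, and at passage 7 it was near it. This reading turned with the replicate number as a block: 16 members (17.4%) were then higher at passage 4, against 13.3% of all genes, and 24 (26.1%) at passage 7, against 15.3%. Of the 92 members 3 were higher at both passages, Ndufs8, Sdhaf1 and Uqcrq, and 68 had the same sign at both. No member was called in opposite directions. Counts over both passages are not given here for all genes, so these carry no background.

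The difference between the responses was tested directly and no member was called in either direction, against 0.516% of all genes higher and 0.679% lower at passage 7. DESeq2 also called none. Uqcrq was the only member with an unadjusted p under 0.05, where 11.54% of all genes were. Its log2 fold change was 0.32 at passage 4 and 0.70 at passage 7, a difference of 0.38 (SE 0.15, unadjusted p = 0.023, adjusted p = 0.32). With the replicate number as a block that difference was called (0.38, SE 0.10, adjusted p = 0.024), 1 of 92 members (1.09%) where 1.87% of all genes were higher.

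**Figure D4:**
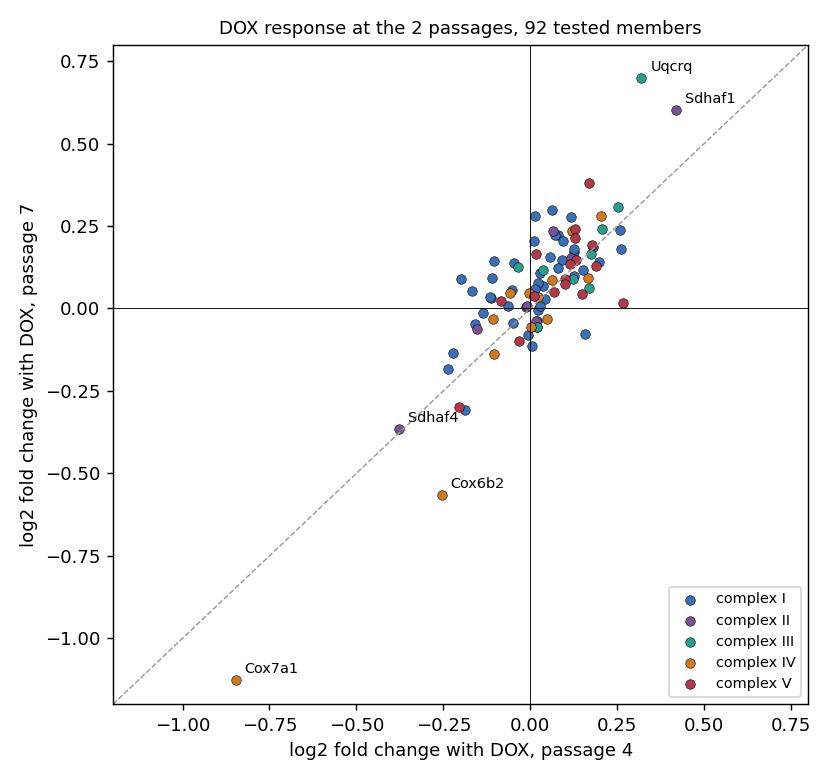
Log2 fold change with DOX at passage 4 (x axis) and passage 7 (y axis) for the 92 tested members, coloured by complex, with the dashed line marking equal change. The passages share no libraries, and Uqcrq lies above the line at 0.32 and 0.70 while Sdhaf4 lies close to it.

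From passage 4 to passage 7 the balance of calls was the other way. Without DOX, 6 of 92 members were higher (6.52%) and 15 lower (16.3%), where 14.3% of all genes were higher and 11.3% lower. With DOX, 7 members were higher and 13 lower (7.61% and 14.1%), where 18.3% and 15.8% of all genes were. So fewer members were called higher than the background in both, and the share called lower was above it without DOX and near it with DOX. No change of a tested member reached 1.5-fold. Of the members 10 were lower and 4 higher in both comparisons. These use different libraries but share an estimate of the spread, and the same counts over all genes are not given here. The passage comparison without DOX shares its passage 4 libraries with the DOX comparison at passage 4. With the replicate number as a block 10 members were higher and 25 lower without DOX (10.9% and 27.2%), against 19.6% and 17.4% of all genes, and 15 were higher with DOX (16.3%), against 23.2%. In replicates 1 and 2 alone 3 were higher and 29 lower without DOX (3.26% and 31.5%), against 16.6% and 13.4% of all genes. In replicates 3 and 4 alone 17 were higher and 6 lower (18.3% and 6.45%), against 16.9% and 14.4%, so the balance of calls was the opposite of that in replicates 1 and 2. Of the 62 tested members with no exon opposite another gene, 4 were higher and 7 lower without DOX (6.45% and 11.3%). Of the 30 with such an exon, 2 were higher and 8 lower (6.67% and 26.7%). The share called lower was thus above the background of 11.3% only in members opposite another gene.

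Core subunits of complexes I to III were among those lower at passage 7. Sdha fell to 0.833 of its level without DOX (log2 fold change -0.26, SE 0.04, adjusted p = 0.0002) and to 0.801 with DOX (log2 fold change -0.32, SE 0.04, adjusted p = 1.6e-05). Its CPM was 255, 255, 254 and 257 at passage 4 and 213, 210.3, 216 and 211 at passage 7 without DOX. Among libraries with DOX it was 256, 274, 255 and 248 at passage 4 and 214, 207, 207 and 199 at passage 7. The passages were apart in both conditions. Ndufv2, an iron-sulfur subunit of the NADH-oxidising arm, fell from 65.5 ± 1.87 to 54.5 ± 5.05 CPM without DOX (log2 fold change -0.27, SE 0.06, adjusted p = 0.0052) and from 66.2 ± 2.63 to 56.7 ± 2.71 with DOX (log2 fold change -0.22, SE 0.06, adjusted p = 0.012). The passages of Ndufv2 did not overlap either.

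In complex III the core proteins Uqcrc1 and Uqcrc2 fell without DOX (log2 fold change -0.23, SE 0.05, adjusted p = 0.0028, and log2 fold change -0.22, SE 0.05, adjusted p = 0.0017) and with DOX (-0.26 and -0.14 on the log2 scale). Uqcrc1 CPM without DOX was 147, 142, 148 and 154 at passage 4 and 120.3, 134, 127 and 124 at passage 7. With DOX it was 158, 154, 171 and 159 and 135, 128, 139.6 and 134. The passages were apart in both conditions, while the DOX groups were apart at passage 4 only. Uqcrb, a subunit near the coenzyme Q site, fell without DOX (log2 fold change -0.22, SE 0.06, adjusted p = 0.012) and was at -0.06 with DOX, not called. In Uqcrb, 43.4% of the 50-base stretches occur in other genes, and in Uqcrc2 24.2% are shared with Pdzd9.

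Complex I held 8 of the 15 members lower without DOX. These were 17.8% of its 45 tested genes, near the 16.3% of all members, where 11.3% of all genes were lower. The strongest was Ndufb6, a membrane-arm subunit, from 47.6 ± 5.75 to 35.4 ± 2.89 CPM (log2 fold change -0.43, SE 0.08, adjusted p = 0.00086), with no overlap. Smim27, on the opposite strand, shares 31.6% of the 50-base stretches of Ndufb6 and was also lower (log2 fold change -0.40, adjusted p = 0.0036). Ndufaf7, a methyltransferase that acts during assembly, fell without DOX (log2 fold change -0.31, SE 0.08, adjusted p = 0.0056) and was at -0.11, adjusted p = 0.29 with DOX. Ndufb2 was the only complex I member higher without DOX (log2 fold change 0.41, SE 0.13, adjusted p = 0.028), at 3.99 to 5.31 and 5.46 to 6.62 CPM. The call for Ndufb2 was lost without any of 5 libraries (replicates 2, 3 and 4 of passage 4 and 3 and 4 of passage 7, all without DOX; adjusted p 0.054 to 0.084).

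In complex IV, Cox6a1 rose with passage without DOX (log2 fold change 0.24, SE 0.05, adjusted p = 0.0032) and with DOX (log2 fold change 0.31, SE 0.05, adjusted p = 0.0002). Its CPM without DOX was 165, 161, 166 and 163 at passage 4 and 178, 198, 194 and 203 at passage 7, and with DOX 151, 157, 158 and 142 and 195, 175, 198 and 187. The passages did not overlap in either condition. Cox6c rose (0.24, adjusted p = 0.015 without DOX, and 0.19, adjusted p = 0.046 with DOX), and Cox5a, which is bound by thyroid hormone metabolites, fell (-0.21, adjusted p = 0.012, and -0.16, adjusted p = 0.039). Cox6c missed the threshold without replicate 4 of passage 4 or replicate 3 of passage 7, both without DOX (adjusted p = 0.056 and 0.059). Cox6b2 rose without DOX (log2 fold change 0.49, SE 0.17, adjusted p = 0.04), a call lost without any of 6 of the 8 libraries compared (adjusted p 0.056 to 0.11).

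In complex V 2 small membrane subunits were higher and 2 other subunits lower. Atp5j2 (subunit f) and Atp5k (subunit e) rose without DOX (log2 fold change 0.38, SE 0.07, adjusted p = 0.00056, and log2 fold change 0.32, SE 0.09, adjusted p = 0.016) and with DOX (0.27 and 0.42). Atp5j2 CPM without DOX was 96.3, 93.7, 97.3 and 87.1 at passage 4 and 113, 124, 123 and 128 at passage 7, with no overlap. Atp5a1 fell without DOX (log2 fold change -0.24, SE 0.04, adjusted p = 0.00052) and with DOX (-0.25). Its CPM without DOX was 661, 653, 644 and 629 at passage 4 and 514, 548, 568 and 556 at passage 7, again with no overlap. Atp5b, its partner in the head, was not called in either condition (-0.07 and 0.04). Atp5k missed the threshold without replicate 2 or 3 of passage 7 without DOX (adjusted p = 0.056 and 0.055), and the fall of Atp5g3 without DOX (-0.14, adjusted p = 0.048) was lost without any of 12 of the 16 libraries, among them 6 of the 8 compared (adjusted p 0.051 to 0.14).

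**Figure D5:**
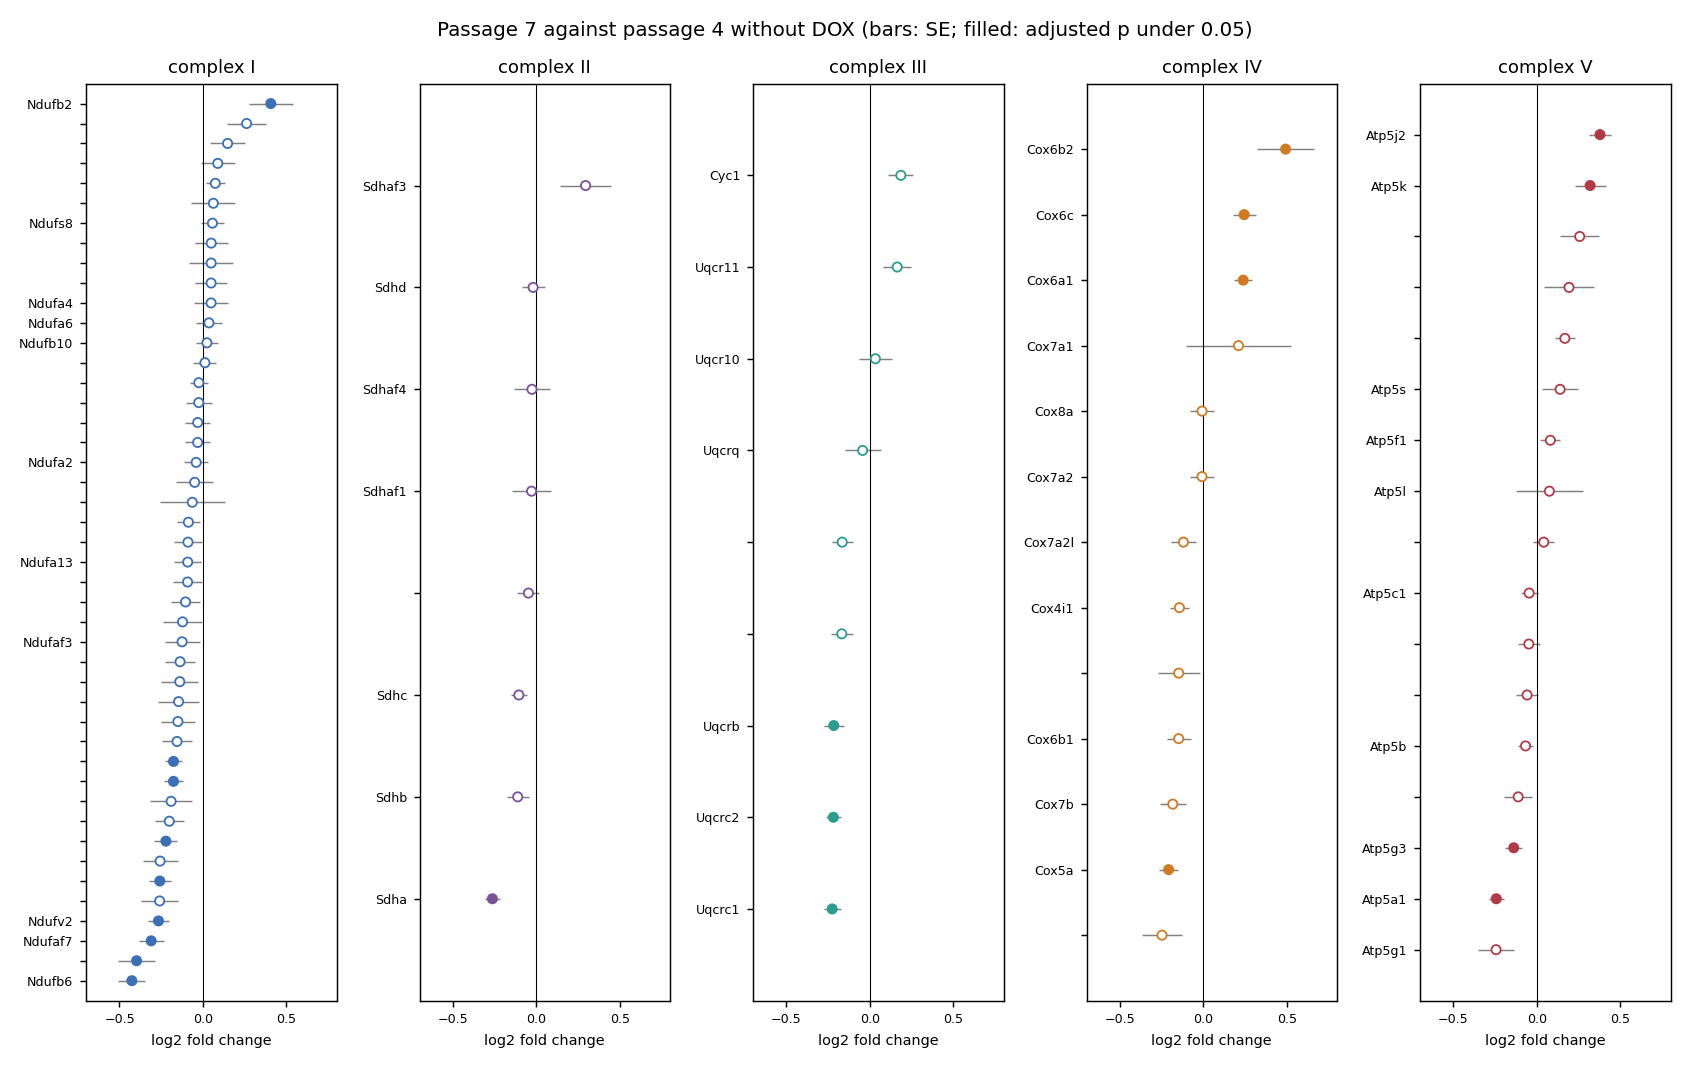
Log2 fold change from passage 4 to passage 7 without DOX for the 92 tested members in 1 panel per complex, with SE as bars, filled points for adjusted p under 0.05 and a selection of members labelled. Complexes I to III have 12 filled points left of 0 and 1 right of it, while complexes IV and V have 3 left and 5 right.

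Other genes of the same machinery were called in both directions with DOX, averaged over passages, where 15.7% of all genes were higher and 16.6% lower. Of 37 tested assembly factors outside the naming rule, 4 rose and 1 fell. Uqcc2 (0.27), needed to build complex III, and Cox14 (0.23) and Coa7 (0.24), which act on complex IV, rose on the log2 scale, with Coa6 (0.27), and Uqcc3 (-0.21) fell. Of 14 genes of cytochrome c and coenzyme Q synthesis, 3 rose (Coq9 0.35, Coq2 0.22 and Coq5 0.25) and 1 fell (Coq6 -0.23). Of 14 citrate cycle genes, 3 rose (Idh3a 0.16, Dld 0.14 and Mdh2 0.12) and 1 fell (Sucla2 -0.13). Of 14 regulators of mitochondrial biogenesis 2 rose, Tfam (0.21), which packs and transcribes mitochondrial DNA, and the helicase Twnk (0.13). By passage, Tfam was called at passage 4 (0.32, adjusted p = 0.0023) and not at passage 7 (0.11, adjusted p = 0.29). Ppargc1a, not called on average, was higher at passage 4 (0.87, adjusted p = 0.014) and at -0.0091 at passage 7, not called. The medians of these lists were 0.08, 0.05, 0.02 and 0.10, beside 0.06 for the members.

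Among RNAs of subunits encoded by mitochondrial DNA some log2 fold changes were above 1, a difference from the nuclear subunits that was not tested. Of 13 listed, 7 were tested. The rest did not pass the filter on low counts, while mt-Co1 stood at 6053 to 7946 CPM at passage 4 without DOX. Why some of these genes had so few counts was not tested, so counts of this list are uncertain. The complex I subunits mt-Nd2 (1.57, SE 0.19, adjusted p = 2.2e-05), mt-Nd4 (1.05, SE 0.19, adjusted p = 0.0007) and mt-Nd6 (1.00, SE 0.24, adjusted p = 0.0068) rose on the log2 scale with DOX, and mt-Co1 of complex IV fell (-0.51, SE 0.13, adjusted p = 0.0057). Not called were mt-Nd1 (0.48, adjusted p = 0.072), mt-Nd5 (0.49, adjusted p = 0.12) and mt-Cytb (-0.11, adjusted p = 0.72). mt-Nd2 stood at 591 to 992 CPM and at 571 to 1205 CPM without DOX at passage 4 and passage 7, and at 2325 to 2969 and 1852 to 3011 with DOX, so the groups were apart at both passages. Of the nuclear core subunits of complex I already described, Ndufs8 and Ndufs7 were called higher, by 0.25 and 0.15, and Ndufs1, Ndufs3 and Ndufv1 were not called.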

How the data were processed

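Raw read counts per gene were used as the authors deposited them; per the labels' protocols, poly(A) RNA was made into directional libraries and sequenced as pairs of 75-base reads. STAR 2.6.0c and GRCm38.p6 are named in the submitters' processing notes; the counting tool, annotation release and strand setting are not given in the sources used here. The deposited TPM values were used only as an alternative, with their columns as headed, because their headers disagree with those of the counts. Counts were filtered with filterByExpr, scaled by TMM and fitted with edgeR 4.0.16 (R 4.3.3; robust quasi-likelihood test, 4 group means), and p-values were Benjamini-Hochberg adjusted over 15316 genes. CPM are counts divided by the TMM-scaled library size. The same code was tested on simulated data.

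Alternatives were DESeq2 1.42.0 (test, or size factors alone), no filter, only the groups compared, the replicate number as a block, the replicate pair (1 and 2 against 3 and 4) as a term, each library left out, no assembly factors, and log2(TPM + 1) with limma 3.58.1 over genes at 1 TPM or more in 4 libraries. Fits in either replicate pair alone, and counts without members that lie opposite another gene or share most of their sequence, were added after seeing the data. The main fit has no replicate term. In the block alternative the replicate numbers were treated as pairing the samples, because the correlation of same-numbered libraries' deviations was 0.21 or more in all 24 pairs. Other numbers of the same replicate pair correlated alike (0.208 to 0.449), so these values do not set pairing by number apart from the replicate pairs. The pairing comes from the data, not the labels.

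Members and lists were chosen with earlier results of these data known. Genes named were, per complex, the up to 4 higher and 4 lower with the lowest adjusted p under DOX averaged over passages and up to 3 each way for passage without DOX, all members called with a change of at least 1.5-fold, the tissue-specific copies of complex IV and the highest and lowest levels; from other lists, up to 3 in each direction. Coa6, Ndufa7, Ppargc1a, the core and mitochondrial subunits given as not called and those said to be chosen after their values were seen are outside this rule.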

Additional observations from a re-analysis of the deposited data

Results flagged for a closer look

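In 6 of 204 groups of 4 libraries (2.94%) the library farthest out lay beyond the 95% limit of Dixon's test, which chance passes in about 1 of 20 groups. Ndufaf3 was low in replicate 1 of passage 7 without DOX, at 11.3 CPM against 15.1 to 15.3 in the other libraries of its group. Atp5s was low in replicate 4 of passage 4 without DOX, at 9.22 CPM against 11.7 to 11.97. Atp5a1 was low in replicate 4 of passage 4 with DOX, at 670.3 CPM against 698 to 702. The other flagged values were high and all came from replicate 3 of a DOX group. At passage 4 these were Atp5j2 at 114 CPM against 99.1 to 102 and Ndufa4 at 81.5 CPM against 71.8 to 73.0, and at passage 7 Cox7a2 at 86.3 CPM against 77.1 to 77.5.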

How the results depend on the processing

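With the replicate number as a block, no called member was lost. Some counts moved by over 1.5 times. With DOX these were the higher calls at passage 4 (16) and passage 7 (24) and in the difference between passages (1, Uqcrq). With passage they were the higher and lower calls without DOX (10 and 25) and the higher ones with DOX (15). In this order they were 17.4%, 26.1%, 1.09%, 10.9%, 27.2% and 16.3% of members, against 13.3%, 15.3%, 1.87%, 19.6%, 17.4% and 23.2% of all genes. When a term for the replicate pair was fitted, the same counts were 18, 25, 1, 10, 25 and 15. Of all 15316 genes they were 2135, 2407, 339, 3085, 2774 and 3643. In that fit 7 members were lower with DOX at passage 7, and 2622 of all genes. The pairs alone differed from each other. In replicates 1 and 2, 4 members were lower with DOX on average (4.35%, against 15.2% of all genes). At passage 4, 5 were lower (5.43%, against 10.4%), and at passage 7, 1 was (1.09%, against 10.5%). In the difference 1 was higher (1.09%, against 2.26%). With passage without DOX 3 were higher (3.26%, against 16.6%) and 29 lower (31.5%, against 13.4%). With passage with DOX 20 were lower (21.7%, against 16.2%). In replicates 3 and 4, 36 members were higher with DOX on average (38.7%, against 19% of all genes). At passage 4, 14 were higher (15.1%, against 11.4%), and at passage 7, 21 were (22.6%, against 14.3%). With passage without DOX 17 were higher (18.3%, against 16.9%) and 6 lower (6.45%, against 14.4%). With passage with DOX 20 were higher (21.5%, against 19.9%) and 8 lower (8.6%, against 17.7%). The causes were not tested.

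The headers of the deposited TPM mix the groups of the counts. With the TPM as headed, 8 members were higher and 0 lower with DOX on average, 1 and 0 at passage 4, and 2 and 0 at passage 7. Of all genes 839 and 1627, 226 and 406, and 255 and 783 were. Under passage, 3 members were lower without DOX (794 of all genes), and 4 higher and 5 lower with DOX (614 and 1617 of all genes). Because groups are mixed, this fit cannot show whether the TPM measure itself changes a result. Log2 fold changes with DOX then turned for Ndufb10 (-0.078), Ndufa6 (0.021), Sdhaf1 (-0.081), Atp5b (-0.0084), Atp5c1 (-0.0091) and Atp5a1 (-0.020). With passage without DOX they turned for Ndufv2 (0.012), Uqcrc2 (0.035), Uqcrc1 (0.043), Cox6a1 (-0.091), Cox6c (-0.10), Cox6b2 (-0.43), Atp5j2 (-0.00015), Atp5k (-0.16) and Atp5a1 (0.058).

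Fitting only the groups compared left 0 members lower with DOX at passage 4 and 2 at passage 7, and could not be done separately for the averaged comparison and the difference, which use all groups. Without the filter 1 was lower at passage 7, with Cox7a1 among the calls lost. The shares of all genes called in these refits are not given here, so a general loss of calls cannot be told apart. Without assembly factors 2 of 80 were lower at passage 7 (2.5%, against 11.6% of all genes). Leaving out members opposite another gene, so that 62 were counted, gave 14 higher with DOX on average (22.6%, against 15.7% of all genes). It gave 3 of 62 higher at passage 4 and 2 of 62 lower at passage 7, where 8.45% and 11.6% of all genes were. With passage, 7 were lower without DOX (11.3%, against 11.3% of all genes) and 8 of 62 with DOX, where 15.8% of all genes were. DESeq2, as a test or for size factors alone, changed no count by over 1.5 times.

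Leaving out 1 library gave 16 to 26 members higher and 7 to 8 lower with DOX on average, and none in the difference. Shares of all genes are not given here for these fits, so the ranges describe the members alone. At passage 4 the ranges were 2 to 6 higher and 0 to 3 lower. The higher count was 2 without replicate 3 of either group and 3 without replicate 1 or 4 without DOX; the lower count was 0 without replicate 1 or 2 without DOX or 1 or 4 with DOX, and 1 without replicate 3 of either. At passage 7 they were 6 to 18 higher and 0 to 5 lower. The higher count was 6 without replicate 1 without DOX or 3 with DOX and 7 without replicate 4 with DOX; the lower count was 2 without replicate 2, 3 or 4 without DOX or 1 with DOX, 1 without replicate 2 with DOX and 0 without replicate 3 with DOX. For passage without DOX, 2 to 9 were higher (3 without replicate 4 of passage 4, 2 without replicate 3 of passage 7) and 12 to 19 lower. For passage with DOX, 3 to 14 were higher (4 and 12 without replicates 1 and 3 of passage 4, 14, 3 and 3 without replicates 2, 3 and 4 of passage 7) and 9 to 16 lower. Depth limits Cox7a1 and Cox6a2, with 159 and 80 counts in all.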
